A study of Mus musculus with 6 samples.

Results

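A set of 7 genes that mark B lymphocytes and plasma cells were followed in the jejunum of irradiated mice: Cd79a, Cd79b, Ms4a1, Cd22, Jchain, Mzb1 and Pou2af1. They were chosen by name as markers of this lineage, with earlier results of these data known. Every array probe that the platform annotation gives to any of them, under a current or an earlier symbol, was taken. Of the 7 genes, 6 had a named probe, with 9 probes in all among the 45281 probes of the array, and 4 genes with 5 probes were detected on at least 3 of the 6 arrays and could be tested, among 10777 genes tested in all. Cd79a had no named probe. The samples were jejunum RNA of male C57BL/6J mice, 8 weeks old, which all received 9 Gy of total body irradiation (TBI) and, right after it, an intraperitoneal injection of 100 µl of 0.1 mM protein. In 3 mice the protein was NeuroD-EGFP, the bHLH transcription factor NeuroD joined to enhanced green fluorescent protein, and in 3 mice it was EGFP alone. Tissue was taken 12 h after irradiation, and each mouse gave 1 Illumina Mouse WG-6 array. Both groups were irradiated and no array came from an unirradiated mouse, so the comparison asks what the fused NeuroD added to irradiation and protein injection.

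B cells of the small intestine sit mainly in Peyer's patches and smaller lymphoid follicles, where stromal cells draw them in with chemokines such as Cxcl13. Plasma cells, their antibody-secreting descendants, lie scattered in the lamina propria and make mostly IgA, which epithelial cells carry into the gut lumen. B cells are among the cells most readily killed by radiation, whereas mature plasma cells are known to be more resistant. In whole jejunum RNA, fewer cells of a type and less RNA per cell cannot be told apart.

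NeuroD binds DNA with E proteins at E-boxes, sites that read CANNTG on both strands. Promoter windows of 300 bases, 250 before and 50 after the transcription start, were held by the RefSeq table (GRCm38.p6) for 4 of the 7 genes, Cd79a, Cd22, Jchain and Pou2af1. Those of Jchain (chr5:88527848-88528147, minus strand) and Pou2af1 (chr9:51213440-51213739, plus strand) are shown because they are the 2 among these 4 that could be tested on the arrays. E-boxes are in capitals, 4 for Jchain and 2 for Pou2af1.
Jchain: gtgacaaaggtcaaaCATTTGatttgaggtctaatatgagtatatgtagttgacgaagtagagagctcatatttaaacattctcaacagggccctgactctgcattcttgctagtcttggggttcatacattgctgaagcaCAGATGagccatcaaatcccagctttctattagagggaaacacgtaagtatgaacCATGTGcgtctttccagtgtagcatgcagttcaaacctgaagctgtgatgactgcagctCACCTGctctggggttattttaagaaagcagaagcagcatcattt
Pou2af1: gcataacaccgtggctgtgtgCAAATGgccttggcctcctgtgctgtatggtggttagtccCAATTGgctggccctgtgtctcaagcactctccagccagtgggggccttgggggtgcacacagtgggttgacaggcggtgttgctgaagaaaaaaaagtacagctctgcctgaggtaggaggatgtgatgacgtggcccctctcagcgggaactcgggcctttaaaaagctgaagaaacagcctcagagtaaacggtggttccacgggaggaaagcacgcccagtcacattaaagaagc
An E-box stood in 72.3% of 32851 RefSeq windows of this length, so its presence does not set these promoters apart. The octamer of immunoglobulin promoters, ATTTGCAT or ATGCAAAT on the other strand, was found in 1.74% of all windows and in none of the 4, which says only that these letters are not in the window.

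Array values are log2 intensities after background correction and quantile normalization, and a probe counts as detected where its detection p-value, which sets its signal against the array's negative control beads, is under 0.05. Differences are NeuroD-EGFP minus EGFP, given with the 95% interval of limma's moderated test and a Benjamini-Hochberg adjusted p over all tested probes. The arrays detected 18271 to 20408 probes each and correlated with each other at 0.957 to 0.988. Against the jejunum label, the array labelled EGFP 3 read 4.56 for lactase (Lct), a jejunal brush border enzyme, against 12.14 to 13.26 in the other 5 mice. It also read 14.26 for Fabp6, the bile acid binding protein of ileal enterocytes, against 4.38 to 5.79 in the others. Apoa4 followed Lct (11.17 in EGFP 3, at least 14.46 elsewhere), and the bile acid exporter subunit Slc51b followed Fabp6 (13.05, at most 11.59 elsewhere). Rbp2 (10.96) and Fabp1 (4.97) were likewise lowest in EGFP 3, and Slc51a (13.71) highest. Other enterocyte markers did not follow. Sis read 14.49 in EGFP 3 (14.38 to 14.66 elsewhere), Apoa1 14.33 (at least 14.36 elsewhere), and Anpep was highest there (14.50). The ileal marker Slc10a2 was detected on no array. Differences are therefore also given without EGFP 3. These markers were looked up after the values had been seen, and the part that the site of sampling had in the results was not tested.

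None of the 4 tested B cell and plasma cell genes differed between NeuroD-EGFP and EGFP mice beyond the spread between mice. At an adjusted p under 0.05, 0 of the 4 tested genes were called, and over all genes 0 of 10777 were called (0%). At an unadjusted p under 0.05 again 0 of 4 passed, against 4.76% of all genes, of which 2.20% were higher and 2.56% were lower. The values of the groups overlapped for all 4 genes, whereas they did not overlap for 11.4% of all genes (5.44% higher and 5.93% lower in NeuroD-EGFP mice). Without EGFP 3, 16 genes of the whole array were called (0.148%), none of them among the 4. The intervals below say how large a difference these 6 arrays would still allow.

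**Figure D1:**
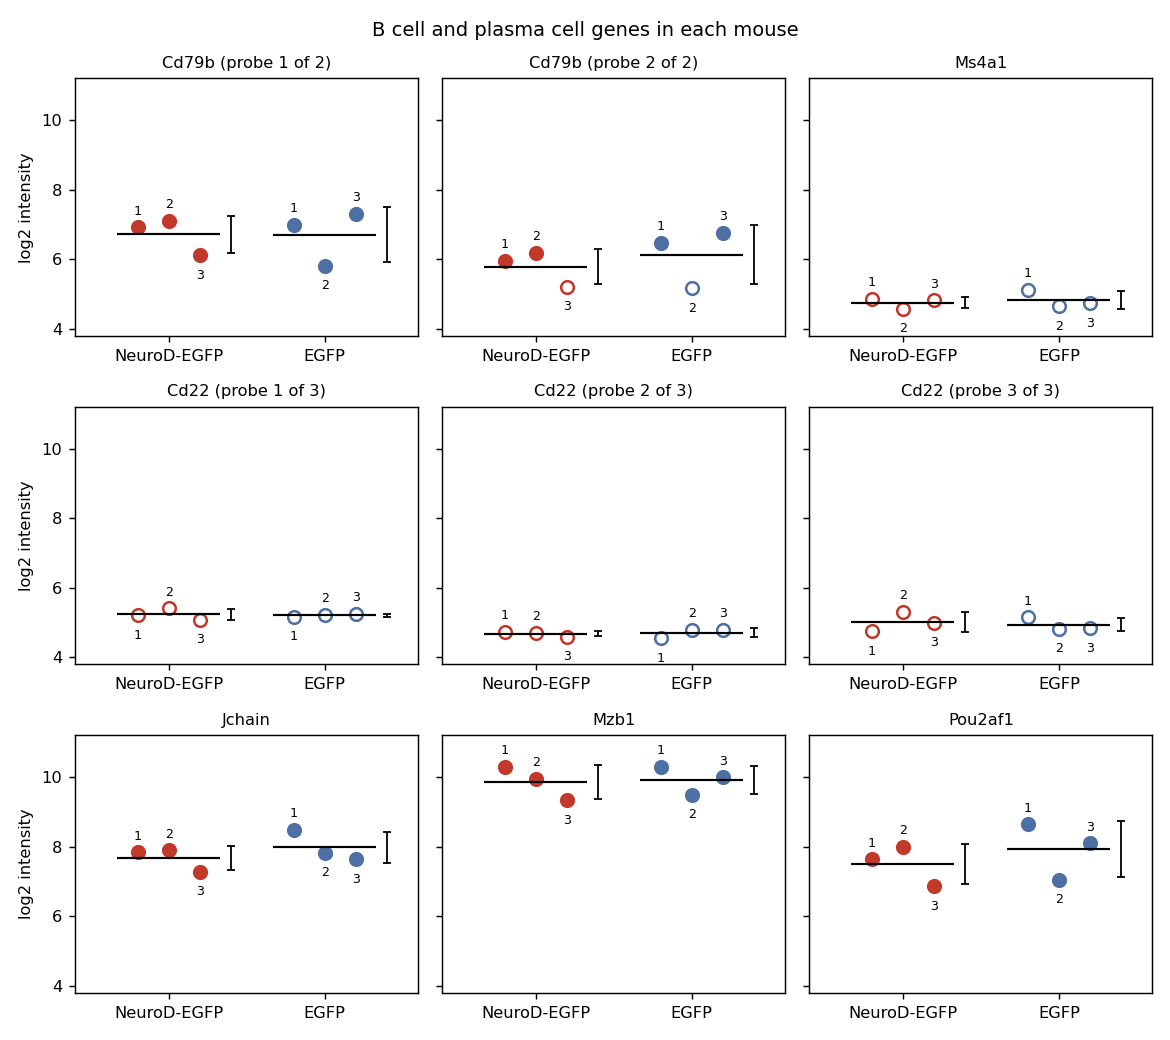
Log2 intensity of every probe of the 6 measured genes in each mouse, NeuroD-EGFP mice in red and EGFP mice in blue, with the mouse number beside each point. Filled points were detected, open points were not, horizontal lines are group means and the bars beside them ± 1 SD (n = 3). Cd22 and Ms4a1 lie between 4.56 and 5.41 in every mouse, and the groups overlap for all genes.

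Cd79b encodes a signalling chain of the B cell receptor, which passes the signal of bound antigen into the cell together with the chain made from Cd79a. Its brighter probe read 6.92, 7.12 and 6.12 in NeuroD-EGFP mice 1, 2 and 3, against 6.99, 5.82 and 7.32 in EGFP mice 1, 2 and 3. The lowest and the highest value both came from EGFP mice, and the NeuroD-EGFP mice lay between them. The means were 6.72 ± 0.53 in NeuroD-EGFP mice and 6.71 ± 0.79 in EGFP mice (SD, n = 3 each), a difference of 0.01 (standard error 0.43, adjusted p = 0.998 by limma). As a ratio this is 1.01-fold, with an interval of 0.50-fold to 2.02-fold. Without EGFP 3 the difference was 0.32 (interval −0.67 to 1.30). The second Cd79b probe was dimmer, read 5.95, 6.19 and 5.22 in NeuroD-EGFP mice and 6.48, 5.17 and 6.76 in EGFP mice, and was not detected in NeuroD-EGFP 3 or EGFP 2. Its difference was −0.35 (interval −1.40 to 0.70, adjusted p = 0.956 by limma), and −0.04 without EGFP 3. Both probes thus had EGFP 3 as their highest and EGFP 2 as their lowest mouse, and gave differences of opposite sign that lie within each other's intervals.

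Ms4a1, the gene of the CD20 surface antigen, and Cd22, an inhibitory sialic acid receptor of mature B cells, were not above background in any mouse. The Ms4a1 probe read 4.86, 4.58 and 4.82 in NeuroD-EGFP mice and 5.12, 4.65 and 4.74 in EGFP mice, with detection p-values of 0.174 or higher. The 3 Cd22 probes had detection p-values of 0.062 or higher. The lowest log2 intensity of any detected probe was between 5.35 and 5.53 on the 6 arrays, so these genes have only an upper bound and no fold is given. Other B cell genes ranged from undetected to detected in every mouse. Of the 19 tested genes of the B cell surface and its signalling, 15 were detected on all 6 arrays, among them Cd72, a coreceptor of B cells, and Vpreb3, a B lineage chaperone of the receptor. By contrast Pax5, the transcription factor that fixes B cell identity, was detected on no array, and Cr2, a complement receptor of mature B cells and follicular dendritic cells, and Ebf1, an early B lineage factor, were each detected in EGFP mice on 1 array only. Of the 4 surface genes chosen, Cd79b alone could therefore be tested.

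Pou2af1 encodes a coactivator that binds octamer factors at immunoglobulin promoters and is used by B cells and plasma cells alike. It read 7.64, 8.0 and 6.86 in NeuroD-EGFP mice 1 to 3, against 8.65, 7.06 and 8.10 in EGFP mice 1 to 3. EGFP 1 was highest and NeuroD-EGFP 3 lowest, with EGFP 2 next to it. The means were 7.50 ± 0.58 in NeuroD-EGFP mice and 7.93 ± 0.81 in EGFP mice (SD, n = 3 each), a difference of −0.43 (standard error 0.45, interval −1.48 to 0.61, adjusted p = 0.948 by limma). This was the largest difference among the 4 genes, at 0.74-fold, and its interval runs from 0.36-fold to 1.53-fold. Without EGFP 3 it was −0.35 (interval −1.55 to 0.85).

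Jchain encodes the joining chain, the small protein that links IgA and IgM into polymers and lets the polymeric immunoglobulin receptor carry them through the epithelium. It read 7.84, 7.90 and 7.28 in NeuroD-EGFP mice, against 8.49, 7.82 and 7.64 in EGFP mice. EGFP 1 stood above the other 5 mice, and NeuroD-EGFP 3 below them. The means were 7.67 ± 0.34 in NeuroD-EGFP mice and 7.99 ± 0.45 in EGFP mice (SD, n = 3 each), a difference of −0.31 (standard error 0.27, interval −0.95 to 0.33, adjusted p = 0.935 by limma). Without EGFP 3 it was −0.48 (interval −1.13 to 0.16, adjusted p = 0.495), more than 1.5 times as large and still short of the threshold. The fold over all 6 mice was 0.81, with an interval of 0.52 to 1.26.

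Mzb1 encodes an endoplasmic reticulum protein of marginal zone B cells and plasma cells that helps antibodies fold and leave the cell, and its probe was well above background in every mouse. It read 10.29, 9.96 and 9.33 in NeuroD-EGFP mice, against 10.30, 9.50 and 9.99 in EGFP mice. The highest mice of the 2 groups were nearly equal, and NeuroD-EGFP 3 was again the lowest of all. The means were 9.86 ± 0.49 in NeuroD-EGFP mice and 9.93 ± 0.40 in EGFP mice (SD, n = 3 each), a difference of −0.07 (standard error 0.30, interval −0.77 to 0.63, adjusted p = 0.991 by limma), and −0.04 without EGFP 3. In fold terms the interval was 0.59 to 1.55, so a doubling or a halving of Mzb1 lay outside it.

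An exact two-sided permutation test over the mice gave p = 1 for Cd79b, 0.4 for Pou2af1, 0.6 for Jchain and 0.7 for Mzb1, where the smallest p that 3 mice against 3 allow is 0.1. The deposited signals of Pou2af1 and Jchain before normalization had the same mice at the ends. For Pou2af1 they were 178, 220 and 82.9 in NeuroD-EGFP mice and 469, 117 and 266 in EGFP mice, on arrays whose 75th percentile signals were 94.2, 90.1 and 80.3 in NeuroD-EGFP mice and 122, 98.0 and 103 in EGFP mice. For Jchain they were 208, 206 and 116 in NeuroD-EGFP mice and 422, 217 and 191 in EGFP mice. EGFP 1 was thus the brightest array and NeuroD-EGFP 3 the dimmest, and after quantile normalization these mice were still at the ends for both genes.

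The rest of the B cell receptor pathway was taken from a list of 29 genes of the B cell surface and its signalling, 19 of which were tested. None was called in either direction, 4 had positive and 15 negative differences, and the median was −0.21, against 0.0047 over all genes, of which 5474 were positive and 5303 negative. Without EGFP 3 the list's median was −0.13, with 3 positive and 16 negative. Less the median of all genes it was −0.22 over 6 mice, −0.05 without NeuroD-EGFP 3, −0.10 without EGFP 1 and −0.40 without EGFP 2. In whole jejunum RNA, which cells the values of this list came from was not tested. Rasgrp3, an exchange factor that switches on Ras below the receptor, had the lowest unadjusted p of the list. It read 5.82, 5.91 and 5.46 in NeuroD-EGFP mice and 6.43, 6.23 and 6.74 in EGFP mice. Its groups did not overlap, although it was detected in only 2 of the 3 NeuroD-EGFP mice, and it was the only tested gene of this list for which that held, against 11.4% of all genes. The difference was −0.74 (standard error 0.20, adjusted p = 0.912 by limma), and −0.60 without EGFP 3. Blnk, the adaptor that carries the signal from the receptor to phospholipase C, differed by −0.54 (standard error 0.24) and by −0.77 without EGFP 3 (adjusted p = 0.917 and 0.181). Pik3ap1, which links the receptor to phosphoinositide 3-kinase, differed by −1.10 (standard error 0.49), and by −0.55 without EGFP 3, where it had its highest value of 8.76. Fcmr, the receptor for IgM, differed by −0.51 (standard error 0.36), and by −0.09 without EGFP 3.

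**Figure D2:**
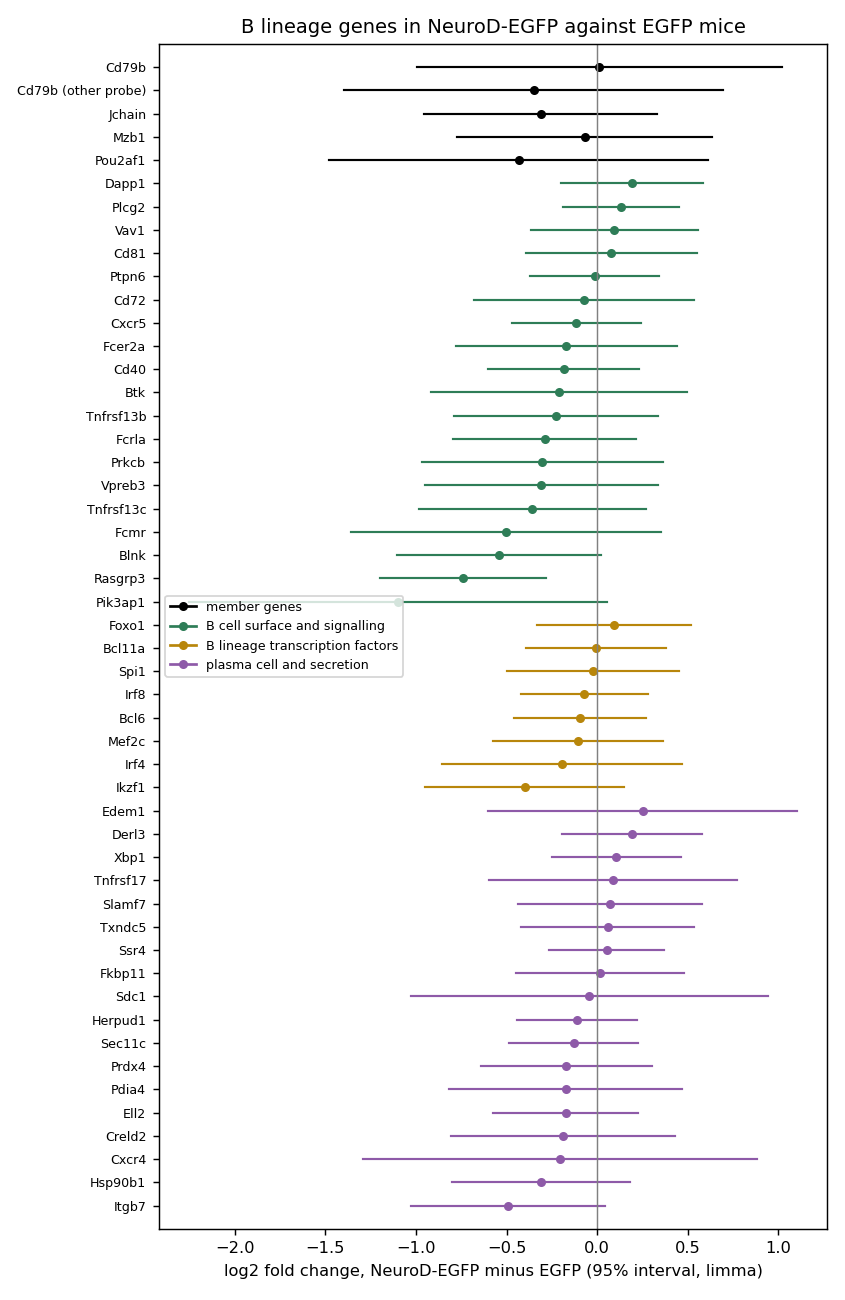
Log2 difference, NeuroD-EGFP minus EGFP, with its 95% interval from limma, for the 5 tested probes of the B cell and plasma cell genes (black) and for the tested genes of the B cell signalling (green), transcription factor (ochre) and plasma cell and secretion (purple) lists. All intervals but that of Rasgrp3 (−1.20 to −0.28, not adjusted for the number of genes) include 0.

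Among 16 transcription factors of the B lineage 8 were tested, with 1 positive and 7 negative differences, a median of −0.08 and no call. Ikzf1, a lymphoid zinc finger factor, differed by −0.40 (standard error 0.23), Irf4, needed for plasma cell formation, by −0.19, and Bcl6, the germinal centre repressor, by −0.09 (adjusted p = 0.917, 0.958 and 0.963). Without EGFP 3 these were −0.48, −0.21 and −0.14, and the median of the list was −0.09.

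Genes of plasma cell differentiation and antibody secretion, 24 in the list and 18 tested, gave no call, 8 positive and 10 negative differences and a median of −0.08, or 0.04 without EGFP 3. Most of them serve secretion in other cells of the gut too. Xbp1, the factor that enlarges the secretory machinery of plasma cells and also of Paneth and goblet cells, read 12.30, 12.34 and 12.39 in NeuroD-EGFP mice and 12.16, 12.09 and 12.46 in EGFP mice, a difference of 0.11 (standard error 0.15), and of 0.22 without EGFP 3. Tnfrsf17, the BCMA receptor that keeps plasma cells alive and is largely restricted to them, read 6.44, 6.22 and 5.54 in NeuroD-EGFP mice and 6.41, 5.64 and 5.90 in EGFP mice, a difference of 0.09 (standard error 0.29), and of 0.05 without EGFP 3. Sdc1, or CD138, a plasma cell marker that epithelium also expresses, differed by −0.04, and by 0.47 without EGFP 3, in which it was highest at 7.77. The lowest unadjusted p of the list belonged to Itgb7, a chain of the integrin that brings lymphocytes to the gut, at −0.49 (standard error 0.23, adjusted p = 0.917) and −0.65 without EGFP 3. After it came Hsp90b1, an endoplasmic reticulum chaperone, at −0.31 (standard error 0.21) and −0.12 without EGFP 3. Prdm1, the master regulator of plasma cells, was detected on 1 array of each group and was not tested. Of the immunoglobulin genes only Ighg1 and Igll1 had a named probe here. Ighg1, a heavy chain constant region, was detected on 1 array of each group and Igll1, a surrogate light chain, on none, so neither was tested. Probes that the annotation does not list may hold other immunoglobulin genes.

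Genes that induce IgA in the gut or carry it were tested for 6 of 11, with 4 positive and 2 negative differences, a median of 0.05 (0.07 without EGFP 3) and no call. Pigr, the receptor that takes polymeric IgA with its joining chain through the epithelium, read 12.83, 12.53 and 12.60 in NeuroD-EGFP mice and 13.01, 13.20 and 12.37 in EGFP mice. The groups overlapped only through EGFP 3, the lowest of the 6. The difference was −0.21 (standard error 0.23, adjusted p = 0.951 by limma), and −0.45 without EGFP 3 (standard error 0.16, adjusted p = 0.296). Aldh1a2, which makes the retinoic acid that favours IgA and gut homing, differed by 0.30 (standard error 0.22), and by 0.43 without EGFP 3. Tnfsf13b, the B cell survival factor BAFF, differed by −0.09 (standard error 0.18), and by −0.18 without EGFP 3.

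**Figure D3:**
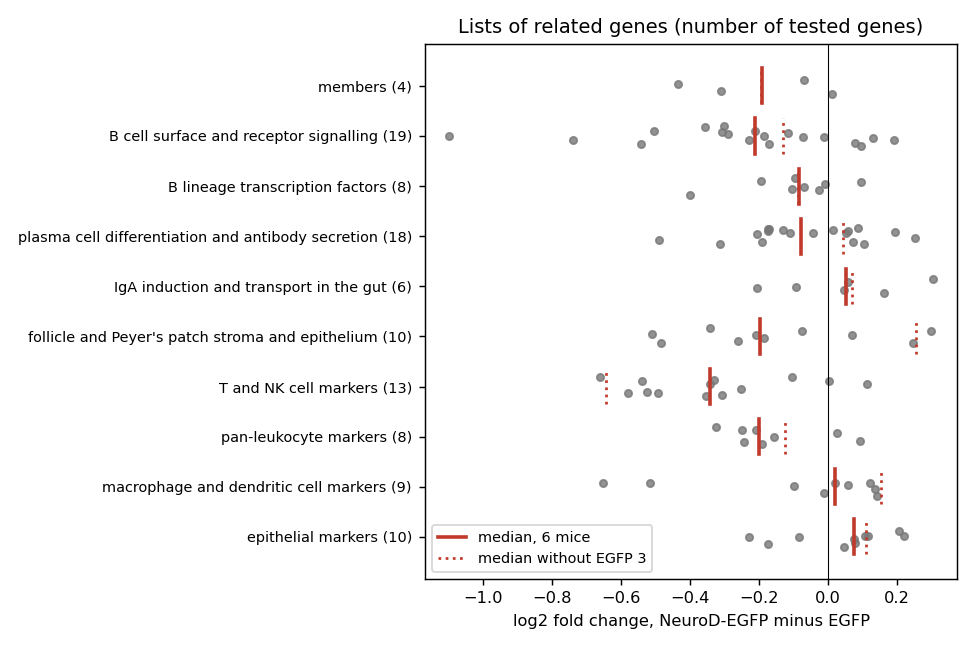
Log2 difference, NeuroD-EGFP minus EGFP, of each tested gene (grey points, spread vertically only to separate them) in the lists named on the left, with the number of tested genes in parentheses. Solid red lines are list medians over 6 mice and dotted lines those without EGFP 3. The follicle list has its median at −0.20 with all mice and at 0.25 without EGFP 3, and the T and NK cell list at −0.34 and −0.64.

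The spread between mice was wide for these genes and did not follow the groups. The values of the 6 mice ranged over a median of 1.36 for the 4 genes, against 0.637 for all genes, and 20.1% of all genes spanned at least 1. For Cd79b, Pou2af1 and Mzb1 the mice at the bottom were NeuroD-EGFP 3 and EGFP 2, 1 from each group. Jchain kept NeuroD-EGFP 3 lowest but had EGFP 3 next above it and EGFP 2 near the middle. NeuroD-EGFP 3 was the lowest mouse of its group for 17 of the 19 tested B cell surface and signalling genes, and EGFP 2 the lowest of its group for 13 of them. This was not particular to B cell genes. NeuroD-EGFP 3 was also lowest for 7 of 8 pan-leukocyte, 10 of 13 T and NK cell and 7 of 9 macrophage markers. For EGFP 2 these counts were 7, 2 and 8. Among 10 epithelial markers they were 3 for NeuroD-EGFP 3 and 1 for EGFP 2, and over all genes they were not made.

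Several markers of lymphoid follicles, though not all, had the same mice at the bottom. For 5 of the 10 tested genes of the follicle list NeuroD-EGFP 3 and EGFP 2 were the lowest of the 6 mice. Tnfaip2, expressed by the M cells that cover follicles, instead had its highest value in EGFP 2 (6.52), and Ltbr, the lymphotoxin receptor of stroma, was highest among EGFP mice there (7.98). The same low pair was found for 10 of 19 B cell surface and signalling genes and 6 of 8 pan-leukocyte markers. It was also found for 6 of 9 macrophage and dendritic cell markers, but for 0 of 13 T and NK cell and 0 of 10 epithelial markers. The pair was thus not particular to follicle genes, and its share over all genes was not counted. Cxcl13, the chemokine by which follicular stroma attracts B cells, read 9.34, 10.65 and 7.74 in NeuroD-EGFP mice and 10.26, 7.47 and 10.78 in EGFP mice. Its order over the 6 mice was the same as that of Cd79b, with EGFP 2 lowest and EGFP 3 highest. Over the 6 mice the exact permutation test of Cd79b against Cxcl13 gave Pearson r = 0.97 (p = 0.0014, adjusted p = 0.014) and a Spearman coefficient of 1 (p = 0.0028, adjusted p = 0.028). The mice fell into a low pair, NeuroD-EGFP 3 and EGFP 2, and 4 mice above them, and over these 4 r was 0.84. Of 10 such relations computed, between the 4 tested genes and with Cxcl13, none of the others passed after adjustment (lowest adjusted p = 0.097, Pou2af1 with Cxcl13, r = 0.89, and 0.47 over 4 mice). The relations were chosen after the values had been seen, and the adjustment over 10 does not cover that choice. Among 2158 genes Cxcl13 stood at rank 6 by r with Cd79b, so these p-values do not set it apart from other genes. Between the groups Cxcl13 differed by −0.26 (standard error 1.00, interval −2.61 to 2.09) and by 0.38 without EGFP 3. Ccl19, a chemokine of the T cell zone, read 7.07, 8.52 and 5.09 in NeuroD-EGFP mice and 7.94, 5.34 and 8.03 in EGFP mice, and was not detected in NeuroD-EGFP 3 or EGFP 2. The groups differed by −0.21 (standard error 1.00), and by 0.25 without EGFP 3. Madcam1, the vessel ligand for gut-homing lymphocytes, was detected in NeuroD-EGFP mice only in mouse 2, and in EGFP mice in 2 of 3. Of the 10 tested genes of the follicle list 0 were called, 3 differences were positive and 7 negative. The sum of their intensities was 3367 to 9276 in NeuroD-EGFP mice and 3004 to 9582 in EGFP mice, each group thus covering nearly the whole range. Tnfaip2 had the lowest p of this list at −0.34 (standard error 0.15, adjusted p = 0.917) and −0.32 without EGFP 3. Its groups did not overlap, and it was the only tested gene of the list for which that held, against 11.4% of all genes. Ltb, by which lymphocytes instruct the stroma, differed by −0.48 (standard error 0.28), and by −0.30 without EGFP 3.

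**Figure D4:**
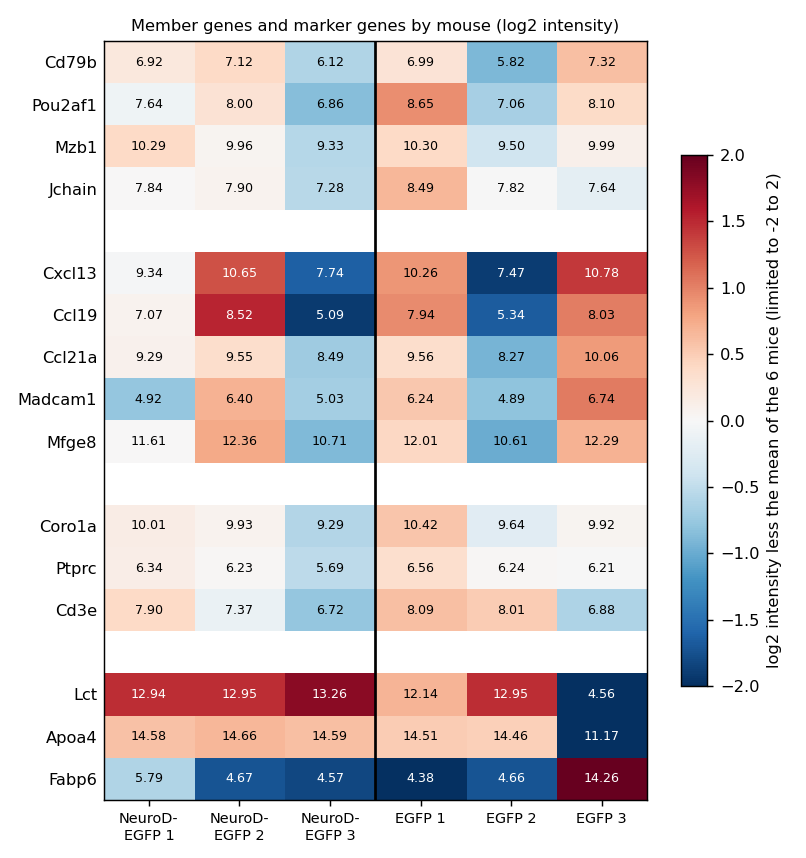
Log2 intensity (numbers in the cells) of the 4 tested B cell and plasma cell genes, 5 follicle markers, 3 leukocyte and T cell markers and 3 enterocyte markers in each mouse, NeuroD-EGFP mice left of the line and EGFP mice right of it. Colour is the value less the mean of the 6 mice, limited to 2 in either direction. NeuroD-EGFP 3 and EGFP 2 are low for Cd79b, Cxcl13 and Ccl19, and EGFP 3 is apart for Lct, Apoa4 and Fabp6.

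Other leukocyte genes took part in this variation to differing extents, and their part in the results above was not tested. The 8 tested pan-leukocyte markers of 12 had a median difference of −0.20 (−0.13 without EGFP 3), no call, and summed intensities of 3147 to 5425 in NeuroD-EGFP mice and 4092 to 6261 in EGFP mice. Arhgdib, an inhibitor of small GTPases in leukocytes, differed by −0.32 (standard error 0.26) and Ptprc, or CD45, by −0.24 (standard error 0.21), and without EGFP 3 by −0.26 and −0.31. The 13 tested T and NK cell markers of 23 had 2 positive and 11 negative differences, a median of −0.34 and no call, with sums of 3423 to 4448 in NeuroD-EGFP mice and 3587 to 5132 in EGFP mice. The median was −0.64 without EGFP 3, while less the median of all genes it was −0.11 without EGFP 1 and −0.16 without NeuroD-EGFP 3. Cd3e, a chain of the T cell receptor complex, differed by −0.33 (standard error 0.41), and by −0.72 without EGFP 3. Cd6, a T cell surface receptor, differed by −0.66 (standard error 0.26), and Lat, an adaptor of T cell receptor signalling, by −0.54 (standard error 0.24), both with an adjusted p of 0.917 by limma. Without EGFP 3 these were −0.83 and −0.72. Cd6 was lower in NeuroD-EGFP mice without overlap, though detected in only 2 of these mice. It was the only tested gene of this list for which that held, against 11.4% of all genes. Unlike for Cd79b, EGFP 3 was low for Cd3e (6.88) and EGFP 2 was high (8.01). The 9 tested macrophage and dendritic cell markers of 12 had a median of 0.02 (0.15 without EGFP 3) and sums of 3325 to 4802 in NeuroD-EGFP mice and 2787 to 5470 in EGFP mice. Mrc1, the macrophage mannose receptor, read 7.22, 7.27 and 7.28 in NeuroD-EGFP mice and 8.02, 7.42 and 8.28 in EGFP mice, without overlap. It differed by −0.65 (standard error 0.23, adjusted p = 0.917 by limma), and by −0.46 without EGFP 3, and Cd14, a lipopolysaccharide receptor, by −0.51 (standard error 0.28) and −0.20. Adgre1 of the same list was higher without overlap, at 7.96, 7.94 and 7.98 in NeuroD-EGFP mice and 7.88, 7.73 and 7.84 in EGFP mice. It differed by 0.14 (standard error 0.13), and by 0.15 without EGFP 3. Of the 9 genes 2 did not overlap, against 11.4% of all genes, and 5 differences were positive and 4 negative. The 10 epithelial markers had a median of 0.08 (0.11 without EGFP 3), and the keratins Krt19 and Krt20 differed by −0.23 and 0.22 (−0.06 and 0.38 without EGFP 3). The 7 tested of 8 jejunal enterocyte markers had 6 positive differences and 1 negative and a median of 0.93, or 0.08 without EGFP 3, and both tested ileal markers of 4 were negative, or positive without EGFP 3. Among the jejunal ones Anpep, a brush border peptidase, differed by −0.30 (standard error 0.16), and by −0.21 without EGFP 3. Apoa4, higher in NeuroD-EGFP mice, was the only tested jejunal marker whose groups did not overlap, against 11.4% of all genes. Of the defining T cell genes Cd4 was detected in NeuroD-EGFP mice on 1 array only and Cd8a on none. Cd8b1, the gene of the other CD8 chain, was by contrast detected in all 3 mice of each group. It read 11.09, 11.08 and 10.99 in NeuroD-EGFP mice and 10.86, 11.07 and 10.89 in EGFP mice. The difference was 0.11 (standard error 0.14), and 0.09 without EGFP 3.

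Genes most like the B cell and plasma cell genes were sought among the 2158 other genes whose values spanned at least 1 over the mice, by Pearson r over the 6 arrays, as a description only, since all points share the same arrays and most of the range comes from few mice. The profile of Cd79b was matched best by Lyz2 (lysozyme of macrophages and other myeloid cells, r = 0.995), Gpnmb (a glycoprotein of macrophages, 0.994), Ccl21a (a lymphoid tissue chemokine, 0.984), Cfp (properdin, 0.983) and P2rx2 (an ATP-gated channel, 0.975), and Cxcl13 came next in order, also at 0.975. The joint profile of Jchain and Mzb1 was matched best by Coro1a (an actin regulator of leukocytes, r = 0.990), Nckap1l (a haematopoietic actin regulator, 0.983), Sh2d2a (a T cell adaptor, 0.982), Gimap7 (a lymphocyte GTPase, 0.980) and Gjb2 (a gap junction connexin, 0.979). Left without EGFP 3, the 10 r values lay between 0.980 and 0.998. Cxcl13 had an r of 0.66 with the profile of Jchain and Mzb1 and stood at rank 227 there, while Coro1a had an r of 0.69 with that of Cd79b and stood at rank 198. Pou2af1, which entered neither profile, had an r of 0.83 with Cd79b and 0.87 with Jchain and Mzb1. Whether these profiles differ from each other beyond the spread of 6 mice was not tested.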

How the data were processed

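Jejunum RNA of 6 mice was measured on 1 Illumina Mouse WG-6 array each, and groups and mouse numbers were taken from the submitters' labels. The authors deposited intensities, a background-subtracted signal for each of 45281 probes (24.4% to 26.1% at or below 0), with a detection p-value beside each deposited signal. A further table of log2 values, also deposited, holds log2 of the same intensities (to within 1.23e-06), with 4 where the signal is at or below 0. Neither table is scaled between arrays, and the scanner software is not given in the sources used here.

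Intensities were processed in R 4.3.3 with the neqc function of limma 3.58.1, which corrected the background by normexp using detection p-values, added an offset of 16 and quantile-normalized the arrays. The 19099 probes detected at p under 0.05 on at least 3 of 6 arrays were tested with lmFit and eBayes, and p-values were adjusted over all 19099 by Benjamini-Hochberg. A gene is represented by its tested probe of highest mean. The number of arrays limits the precision, and the p-values measure only the spread between these 6 mice. The scripts were tested on simulated data. Probe names came from the platform annotation (34885 probes with 1 symbol, 18 with several, 10378 not listed and left unnamed). Promoters came from RefSeq, GRCm38.p6, while the array was designed on another build.

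Named were all 7 genes, the 2 to 4 genes of lowest p in each list described with a few defining markers, and the 5 genes most like each profile. These genes, the 12 lists beside them and the tests were chosen with earlier results of these data known, and the ileal markers after the values were seen. There were 17 alternatives. Those on offset, scaling, detection filter, array weights, prior, replicate block, test (the methods' t-test), probes per gene and each mouse left out in turn changed 1 choice each. The alternative without normexp also put a floor of 16 in place of the offset, and the authors' log2 values replaced background correction, offset and scaling together. A beadchip block was not run because labels and columns name no beadchip. Probe sequences were not used here.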

Additional observations from a re-analysis of the deposited data

How the results depend on the processing

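Over all 17 alternatives none of the 4 tested genes passed an adjusted p of 0.05 (highest 1.00 each), and no gene of the lists did. The lowest adjusted p by limma was 0.493 for Jchain and 0.660 for Mzb1, both in the authors' log2 values, which are not scaled between arrays. It was 0.545 for Pou2af1 and 0.697 for Cd79b, both without EGFP 2. Jchain and Pou2af1 were negative in all 17 alternatives. Cd79b, at 0.01, changed sign with offset 50 (−0.0063), with the mean of its probes (−0.17) and in the authors' log2 values (−0.27), in which the median of all genes is also −0.27. Leaving out each mouse in turn gave −0.43 to 0.32 for Cd79b, −0.29 to 0.19 for Mzb1 (positive without EGFP 1, 0.11, or NeuroD-EGFP 3), −0.48 to −0.06 for Jchain (without EGFP 3 and EGFP 1) and −0.87 to −0.08 for Pou2af1 (without EGFP 2 and EGFP 1). Over all genes, leaving out a mouse gave 0 to 14 genes higher and 0 to 2 lower at an adjusted p under 0.05, all of these calls without EGFP 3. At an unadjusted p under 0.05 the counts were 237 higher and 276 lower, against 56 and 1172 in the authors' unscaled values, 569 and 496 with array weights (lowest for EGFP 3, 0.315), 524 and 598 with no filter, and 283 and 333 by the methods' t-test, which called 0 after Benjamini-Hochberg adjustment. Without NeuroD-EGFP 2 they were 127 and 163, and without EGFP 3 782 and 723. List medians less the median of all genes moved by less than the spread between mice, although in leaving out each mouse that of the 4 genes (−0.20) ran from −0.42 without EGFP 2 to 0.04 without NeuroD-EGFP 3, that of B cell surface genes (−0.22) from −0.40 to −0.05 and that of pan-leukocyte markers (−0.20) from −0.36 to 0.02 without the same mice, that of T and NK cell markers (−0.35) from −0.65 without EGFP 3 to −0.11 without EGFP 1, that of macrophage and dendritic cell markers (0.02) from −0.24 to 0.19, that of the follicle list ran from −0.65 without EGFP 2 to 0.31 without NeuroD-EGFP 3 (0.24 without EGFP 3) and that of the jejunal enterocyte list from 0.07 without EGFP 3 to 1.44 without EGFP 2. The spread between mice used for list medians was the SD within groups of each list's mean value in the same 6 mice. A mouse set apart therefore widened the limit it was held against. The jejunal list, with EGFP 3 at a centred mean of −2.07, had an SD of 0.997. Staying under this limit thus says little about stability. In the main test mice with the same number were not treated as pairs. Correlations of their deviations were 0.30, −0.09 and 0.16, and those between mice of different number ran from −0.27 to 0.10. With so few mice these values do not settle whether the mice were paired. With the replicate number as a block, adjusted p was 0.998 for Cd79b, 0.894 for Jchain, 0.984 for Mzb1 and 0.930 for Pou2af1, with 272 genes higher and 303 lower at an unadjusted p under 0.05 and 0 after adjustment. Background limits Ms4a1 and Cd22, whose values near it cannot show a difference.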
